A study of Homo sapiens with 12 samples.

Results

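Polyadenylation site pairs at most 1000 nt apart were examined in human neurons depleted of TDP-43. A pair is a site whose use rose and a site whose use fell in the same gene, as the authors called them from 3' end-seq. Members were chosen by genomic distance alone: the positions of the rising and the falling site differed by at most 1000 nt. The rule took in 526 of the 2220 pairs in the authors' deposited table, and each pair belonged to a different gene. Of the remaining 1694 pairs, 1146 lay over 1000 and up to 10000 nt apart and 548 farther.

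The knockdown neurons received TDP-43 shRNA and the control neurons scrambled shRNA, and the labels give day 7 for both. All were cortical neurons obtained by over-expressing NGN2 in WA01, an established line of human embryonic stem cells, so every value comes from 1 line. There were 12 libraries, 3 from TDP-43 shRNA and 3 from scrambled shRNA cells in each of 2 assays, 3' end-seq and stranded total RNA-seq. The labels do not say whether replicates were separate cultures, and the p-values that the authors give may reflect technical spread alone. The tables used list items that passed the authors' threshold and give no value per library, so no spread between replicates can be stated. The depth is unknown, and neither the level of TARDBP, which encodes TDP-43, nor neuronal marker genes were analysed here.

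A polyadenylation site is where a transcript is cut and given its poly(A) tail. The cutting machinery reads a short signal, usually AAUAAA, a little upstream of the cut, and U- or GU-rich stretches downstream. Many genes carry several such sites in the last exon, and the choice between them sets how much 3' untranslated region, with its binding sites for microRNAs and RNA-binding proteins, a transcript keeps. TDP-43 is a nuclear protein that binds UG-rich RNA and leaves the nucleus of affected neurons in the motor neuron disease ALS and in frontotemporal dementia. Sites this close usually share one last exon, where a switch in a protein-coding gene changes the untranslated tail without touching the protein. The exons and coding sequences of the members were not mapped here.

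The sequence up to the site could be read for 3 of the 1052 member sites, those that fall inside a RefSeq window around another gene's start (GRCh38.p14). The 2 printed here are shown because they let the cleavage signal be seen at its distance from the called position. Each run is the 30 bases ending at the called position, in the direction of the transcript, with the signal in capitals.
KMT2D rising site, chr12:49018978-49019007, minus strand: acgacaAATAAAaaaagaacattttaaata
TMEM107 falling site, chr17:8173928-8173957, minus strand: gaactactgAATAAAaaaaaaacaacgctg
The first base of the signal lay 23 nt before the KMT2D site and 20 nt before the TMEM107 site. KMT2D encodes a histone H3 lysine methyltransferase and TMEM107 a protein of the ciliary transition zone. Both pairs were called longer, with changes in the authors' deposited table of 0.162 over 259 nt in KMT2D and 0.147 over 687 nt in TMEM107. The search took AATAAA and ATTAAA on the transcript strand only, where the letters do not overlap each other. Of 10 sites of the wider pairs that could be read in the same way, 9 held one of these signals. The last 30 bases of all 35116 RefSeq windows held one in 0.769%. Those windows lie around gene starts, so this share is no matched background for polyadenylation sites. Because 3' end-seq primes on poly(A), genomic runs of A can look like a site. The 10 bases after the called position held 2 A at KMT2D and 1 A at TMEM107, and for the other sites internal priming was not tested.

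Transcripts of most genes with a close pair ended farther downstream in the TDP-43 shRNA neurons. Of the 526 pairs in the authors' deposited table, 465 were called longer and 61 shorter. Among named genes called longer, TIMM10, a chaperone of protein import into mitochondria, had the largest change, followed by SLC6A8, the creatine transporter, and CD68, a lysosomal membrane glycoprotein. The share called longer was 88.4% in close pairs (95% exact binomial interval 85.4 to 91.0), beside 84.7% of all listed pairs. It was 90.3% (88.5 to 92.0) in pairs over 1000 and up to 10000 nt apart and 69.5% (65.5 to 73.4) in pairs farther apart, so a high share was not limited to close pairs. Shorter pairs made up 11.6% of the close pairs (9.0 to 14.6), beside 15.3% of all listed pairs, 9.69% of pairs up to 10000 nt apart beyond the close ones and 30.5% of those farther apart. These intervals treat genes as independent draws and cover counting error only. The table lists changed genes alone, so the share of tested genes that changed is not known.

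Within the first 1000 nt the share called longer lay above 80% in each of 5 distance classes. It was 83.1% of 77 pairs at most 100 nt apart (72.9 to 90.7), and 88.1% of the pairs over 100 and up to 250 nt apart (80.2 to 93.7). Over 250 and up to 500 nt it was 85.2% of 142 pairs (78.3 to 90.6), and over 500 and up to 750 nt 92.0% of 112 pairs (85.3 to 96.3). Pairs over 750 nt apart had the highest share, 93.6% of 94 (86.6 to 97.6). The intervals of all 5 classes overlap.

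**Figure D1:**
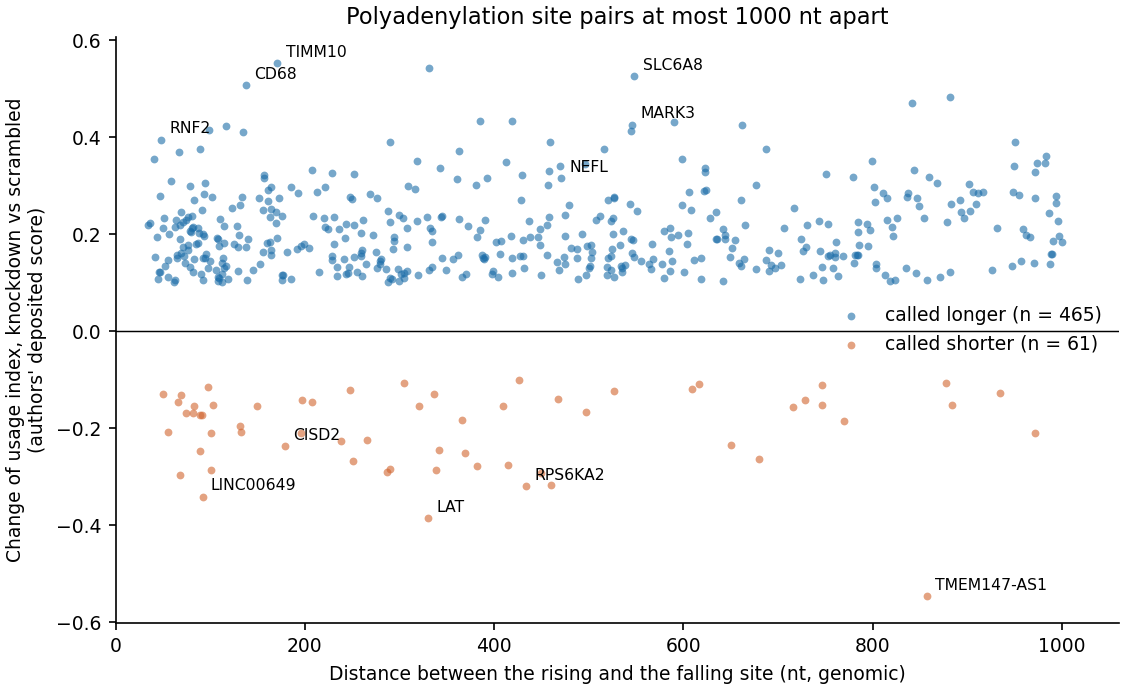
Each point is 1 of the 526 close pairs, placed by the genomic distance between the rising and the falling site (x, nt) and the change of usage index between knockdown and scrambled neurons in the authors' deposited table (y, a score of unstated scale). The 465 pairs called longer lie above 0 and the 61 called shorter below it, and distances run from 34 to 1000 nt.

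The distance between the switched sites had a median of 390 nt, quartiles of 170 and 644 nt and a range of 34 to 1000 nt. Pairs called longer had a median distance of 407 nt and pairs called shorter 321 nt. The shortest pair was that of TSPYL4, a nucleosome assembly family gene, with 34 nt and a change of 0.219 in the authors' deposited table. PIM1, a serine/threonine kinase gene, followed with 36 nt and a change of 0.223 in the authors' deposited table. SH3D21 had 41 nt, MRFAP1L1 42 nt and DACT1, a modulator of Wnt signalling, 44 nt, with changes of 0.354, 0.152 and 0.193 in the authors' deposited table. All 5 of these shortest pairs were called longer.

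At the upper end, the members just inside the limit were SUSD6 at 996 nt, MAU2, a cohesin loader gene, at 997 nt and PGAP6 at 1000 nt. Their changes were 0.228, 0.195 and 0.184 in the authors' deposited table. Just outside it lay CLPB at 1001 nt, HGSNAT at 1003 nt and CNOT8 at 1012 nt, with changes of 0.129, 0.244 and 0.151 in the authors' deposited table. All 6 were called longer, and their changes overlap across the limit.

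The usage index, the authors' score of polyadenylation site use, changed by a median of 0.190 in size in close pairs (quartiles 0.144 and 0.250, largest 0.552). No source used here gives the scale of the score. The smallest change listed in the whole table was 0.100 in size. In pairs over 1000 nt apart the median size was 0.219, with quartiles of 0.159 and 0.30. A change of at least 0.3 was listed for 65 close pairs (12.4%, 95% exact binomial interval 9.7 to 15.5) and for 423 wider pairs (25%, 22.9 to 27.1), with 23.6% in those up to 10000 nt apart and 27.9% in those farther apart. Pairs called longer and shorter had similar median sizes, 0.190 and 0.174. Across the 526 pairs, which share libraries and genes' depths, distance and size of change had a Spearman's rho of 0.06, given as a description.

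The members with the largest changes called longer had varied known roles. TIMM10, a small chaperone of the mitochondrial intermembrane space, led with 0.552 over 171 nt in the authors' deposited table (adjusted p = 2.11e-144). Its rising site lay exactly at the RefSeq end of the gene. SLC6A8 had a change of 0.525 over 548 nt in the authors' deposited table, with both sites inside the gene and the rising one 642 nt short of its end. CD68 had 0.506 over 138 nt and BTN2A2, a butyrophilin gene, 0.482 over 882 nt in the authors' deposited table. HES7, a transcriptional repressor of the segmentation clock, changed by 0.433 over 385 nt in the authors' deposited table. POFUT1, which adds O-fucose to Notch receptors, had 0.431 over 590 nt in the authors' deposited table. In all of these but SLC6A8 the rising site was within 4 nt of the RefSeq end.

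MARK3, C11orf87, MINCR and HSPA1L complete the named genes among the largest changes called longer. MARK3, a kinase that acts on microtubule-associated proteins, had 0.425 over 546 nt and C11orf87 0.432 over 419 nt in the authors' deposited table. MINCR, a long noncoding RNA, had 0.424 over 662 nt in the authors' deposited table. HSPA1L, an Hsp70 family chaperone gene, had 0.423 over 117 nt in the authors' deposited table. Unnamed genes ENSG00000215146, at 0.542 over 331 nt, and ENSG00000289294, at 0.471 over 842 nt, also stood among the 12 in the authors' deposited table.

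The members called shorter had 1 large change and then a close group. TMEM147-AS1, an antisense RNA gene, had the largest at -0.546 in the authors' deposited table (adjusted p = 1.71e-43). Its falling site at 35540738 on the minus strand of chromosome 19 (hg38) was the RefSeq end of the gene, and its rising site lay 857 nt upstream. LAT, an adaptor of T cell receptor signalling, followed at -0.385 over 330 nt and LINC00649 at -0.341 over 92 nt in the authors' deposited table. RPS6KA2, a ribosomal S6 kinase gene, changed by -0.320 over 434 nt in the authors' deposited table. TMEM97, which encodes the sigma-2 receptor, had -0.317 over 460 nt in the authors' deposited table. In LAT and TMEM97 the falling site was 1 nt short of the RefSeq end, and in RPS6KA2 23 nt short.

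The rest of the 12 largest changes called shorter ran from -0.296 to -0.278. MKRN2, a makorin RING finger gene, had -0.286 over 339 nt and ARNT, the dimerisation partner of hypoxia-inducible factors, -0.278 over 382 nt in the authors' deposited table. ZNF354C had -0.286, FAM118B -0.285 over 290 nt and the pseudogene CRYBB2P1 -0.292 over 450 nt in the authors' deposited table. ENSG00000273486 had -0.296 over 68 nt in the authors' deposited table. RGP1, a subunit of an exchange factor for the Golgi GTPase RAB6, had -0.290 over 287 nt with an adjusted p of 0.0398 in the authors' deposited table.

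**Figure D2:**
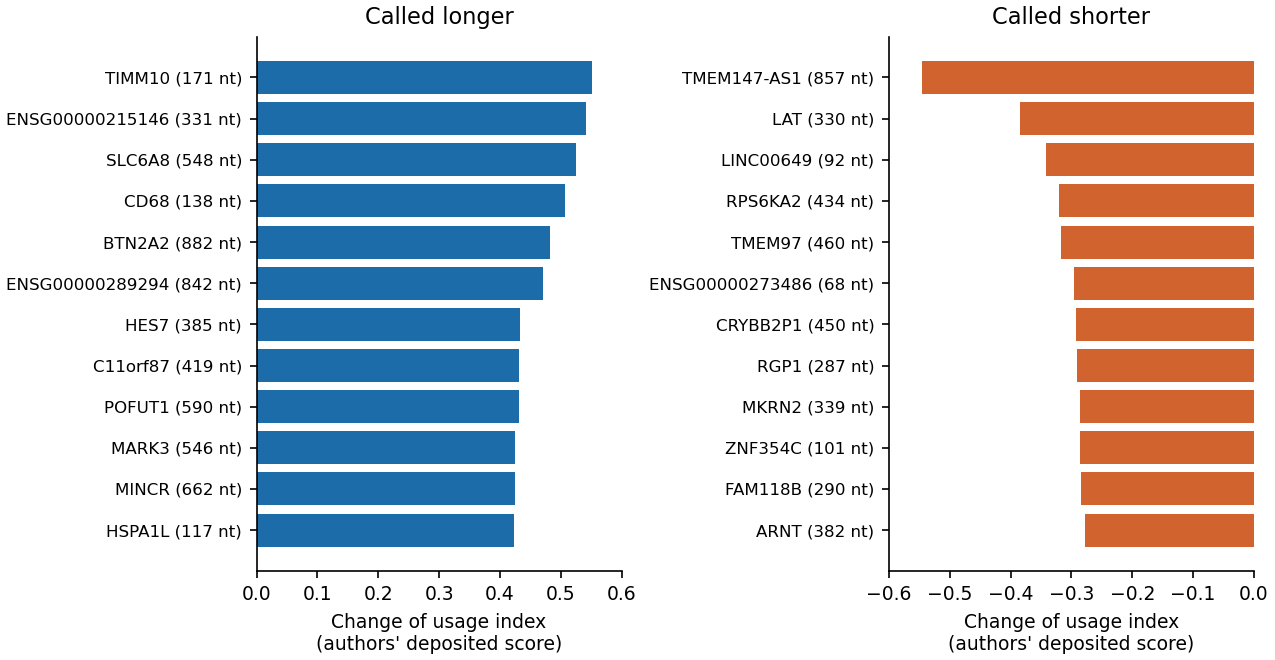
Bars give the change of usage index between knockdown and scrambled neurons (x, the authors' deposited score) for the 12 close pairs with the largest change called longer and the 12 called shorter, with the distance between the sites in brackets. TIMM10 reached 0.552 and TMEM147-AS1 -0.546, and LAT, the next after TMEM147-AS1, had -0.385.

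In most close pairs the downstream site was the annotated end of the gene, whichever way use moved. A RefSeq gene of the same name and chromosome was found for 495 of the 526 members. Both sites lay inside that gene in 468 of the 495 (94.5%, 95% exact binomial interval 92.2 to 96.4), beside 84.9% (83.0 to 86.6) of the 1605 matched wider pairs, which was 87.6% up to 10000 nt and 79.1% beyond. The downstream site was within 25 nt of the annotated end in 339 of 495 close pairs (68.5%, 64.2 to 72.6) and in 62.6% (60.1 to 64.9) of the wider ones, with 65.6% (62.7 to 68.4) up to 10000 nt and 56.0% beyond. The median downstream site lay -3 nt from that end, where a negative value is short of it. In close pairs called longer, where the downstream site is the rising one by definition, it was at the end in 303 of 443 (68.4%). In close pairs called shorter, where the downstream site is the falling one by definition, it was at the end in 36 of 52 (69.2%).

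The other pairs lay mostly inside the annotated gene. Both sites were more than 25 nt short of the end in 148 members (29.9%), beside 29.0% of all matched pairs. They were more than 1000 nt short in 74 (14.9%), beside 17.3% of all matched pairs. PTPN14, a tyrosine phosphatase gene, is an example with a change of 0.415 over 99 nt in the authors' deposited table and its rising site -133516 nt from the RefSeq end. Pairs with the upstream site at the annotated end and the downstream one past it made up 0.808% of close pairs. Among all matched pairs the share was 3%. These close pairs were 4 members, all called longer. They were KAT14, a histone acetyltransferase complex gene, with its rising site 331 nt past the end, JRKL with 474 nt, A2M-AS1 with 623 nt and GSEC with 829 nt. Their changes were 0.213, 0.240, 0.327 and 0.275 in the authors' deposited table, and these 4 genes were named after their values were seen. LINC00682 and LINC01801, both called longer, had both sites past the RefSeq end.

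**Figure D3:**
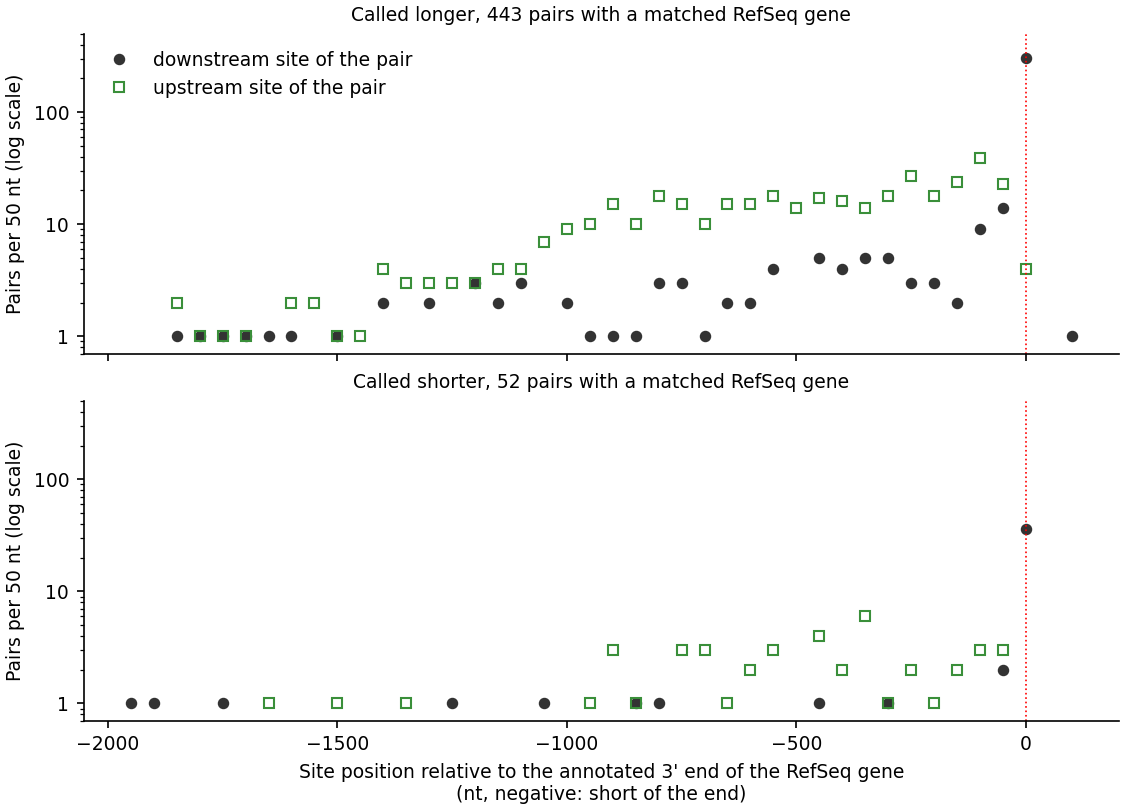
Points give the number of close pairs per 50 nt (y, log scale) by the position of the downstream site (filled circles) and of the upstream site (open squares) relative to the annotated end of the RefSeq gene (x, nt), for pairs called longer (above) and shorter (below). In both panels the filled circle at 0 stands far above all others, while upstream sites spread over the 1000 nt before it. Outside the axis lie 50 downstream and 52 upstream sites of pairs called longer, and 5 and 8 of pairs called shorter.

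No changed splice junction ended between the sites of a close pair. Of the 15980 junctions in the authors' deposited splicing table, 0 started or ended between the sites on the same strand in any of the 526 members, which allows a share of up to 0.699% (95% exact interval). This was so for 136 of the 1694 wider pairs (8.0%, 6.8 to 9.4), and for 6.13% of all listed pairs. It was so for 2.27% (1.49 to 3.31) of wider pairs up to 10000 nt apart and 20.1% of those farther apart. A wider pair spans more sequence, so the counts are not matched for length. The genes themselves did appear in the splicing table: 83 of 526 (15.8%, 12.8 to 19.2) had a changed cluster elsewhere, beside 18.2% of all listed pairs. MARK3, FYN, a Src family kinase gene, and TMEM43 were among them and were chosen after their values were seen.

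Few rising sites of close pairs were cryptic, the authors' name for a site little used in control neurons. In 12 of the 526 members the rising site was in the authors' deposited cryptic table (2.28%, 95% exact binomial interval 1.18 to 3.95). This compares with 8.96% of all listed pairs, 8.81% (7.24 to 10.6) of pairs over 1000 and up to 10000 nt apart and 15.7% (12.7 to 19.0) of those farther apart. No falling site was cryptic in any pair. The cryptic table was selected by the authors for low use in controls, so a gain at its sites is how they were chosen and not a result.

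The 12 cryptic rising sites had a single usage value per group, so they carry no error. RPS6KA2 had the highest, with 36.8% usage in TDP-43 shRNA neurons and 4.34% in scrambled shRNA neurons in the authors' deposited table. CISD2, an iron-sulfur protein gene of the endoplasmic reticulum and mitochondria, had 28.1% in TDP-43 shRNA and 4.66% in scrambled shRNA neurons in the authors' deposited table. NDRG4, which lies outside the naming rule and was chosen after its values were seen, had 13.6% in TDP-43 shRNA and 1.71% in scrambled shRNA neurons in the authors' deposited table. The unnamed ENSG00000280106 had 16.7% in TDP-43 shRNA and 2.30% in scrambled shRNA neurons in the authors' deposited table. These 4 were called shorter: the cryptic site lay upstream, and the falling site lay 179 to 434 nt farther on.

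In the other 8 the cryptic site was the downstream one. ODAD4, a gene of the ciliary dynein docking machinery, had 31.1% usage in TDP-43 shRNA and 2.57% in scrambled shRNA neurons in the authors' deposited table. DPH5, an enzyme of diphthamide synthesis, had 24.7% in TDP-43 shRNA and 1.96% in scrambled shRNA neurons in the authors' deposited table. KLF7, a neuronal transcription factor gene, had 23.2% in TDP-43 shRNA and 2.64% in scrambled shRNA neurons in the authors' deposited table. DROSHA, the nuclease that cuts primary microRNAs, had 19.7% in TDP-43 shRNA and 5.92% in scrambled shRNA neurons in the authors' deposited table. ATP6V1H, a proton pump subunit, had 19.2% in TDP-43 shRNA and 5.03% in scrambled shRNA neurons in the authors' deposited table. NCOA7, a nuclear receptor coactivator gene, had 16.4% in TDP-43 shRNA and 4.37% in scrambled shRNA neurons in the authors' deposited table. SNRPB2, a spliceosomal protein gene, had 19.0% in TDP-43 shRNA and 5.05% in scrambled shRNA neurons in the authors' deposited table. The rising sites of DPH5, KLF7, DROSHA and NCOA7 were within 3 nt of the RefSeq end. Those of ATP6V1H and ODAD4 lay 12 and 19 nt short of it, inside the 25 nt margin. In these genes a site called cryptic was the annotated end. The rising sites of DDX19A and SNRPB2 lay 75 and 790 nt short.

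**Figure D4:**
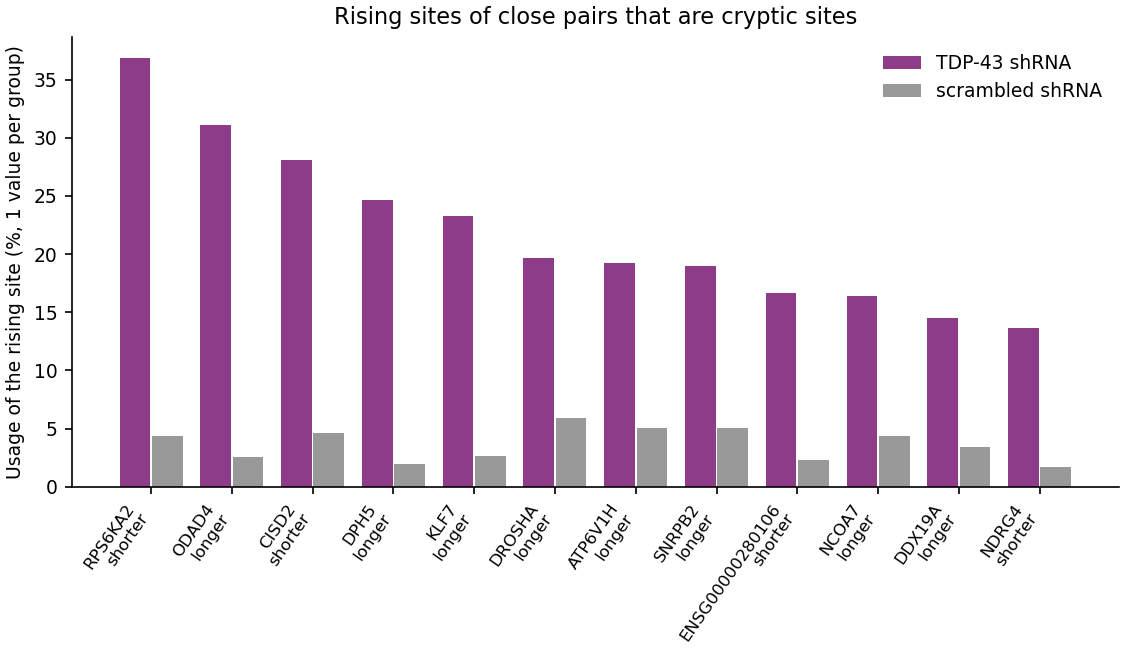
Bars give usage of the rising site (y, %, 1 authors' value per group with no error) in TDP-43 shRNA (left bar) and scrambled shRNA neurons (right bar) for the 12 close pairs whose rising site is cryptic. Knockdown usage ranges from 13.6% at NDRG4 to 36.8% at RPS6KA2, and control usage from 1.71% at NDRG4 to 5.92% at DROSHA.

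In RNA-seq, 38 of the 526 genes were also listed with a polyadenylation change (7.22%, 95% exact binomial interval 5.16 to 9.78), beside 10.6% of all listed pairs. The share was 15.0% (13.0 to 17.2) for pairs over 1000 and up to 10000 nt apart and 4.74% (3.12 to 6.87) for those farther apart, so it did not order with distance. Of the 38, 34 were longer in 3' end-seq and distal in RNA-seq, 3 were shorter and proximal, 1 was shorter and distal, and 0 were longer and proximal. Distal calls made up 95% of all 841 genes in the RNA-seq table, so the 35 distal calls among the 38 (92.1%) sit near that background. The RNA-seq table does not say which group was subtracted, so calling a gene distal is taken to mean greater use of distal sites after TDP-43 shRNA. Its score exceeds 1, so the sizes of the 2 assays are not compared.

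MARK3 had an RNA-seq change of 0.565 in the authors' deposited table. CIAPIN1, a gene of cytosolic iron-sulfur assembly, had, in the authors' deposited tables, 0.370 from 3' end-seq and 1.04 from RNA-seq. PSME4, a proteasome activator, had, in the authors' deposited tables, 0.350 from 3' end-seq and 0.808 from RNA-seq. LRFN1, a synaptic adhesion gene, had, in the authors' deposited tables, 0.323 from 3' end-seq and 1.25 from RNA-seq. DPH5 had the highest RNA-seq change of the 38, at 2.06 in the authors' deposited table. CIAPIN1, LRFN1 and DPH5 were chosen for display after their values were seen.

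The shorter and proximal genes were RPS6KA2, CISD2 and TRAF4, an adaptor of tumour necrosis factor receptor signalling. TRAF4 had, in the authors' deposited tables, -0.107 from 3' end-seq over 877 nt and -0.761 from RNA-seq. CISD2 had, in the authors' deposited tables, -0.237 from 3' end-seq over 179 nt and -0.685 from RNA-seq. RPS6KA2 had -1.06 in RNA-seq in the authors' deposited table. RGP1 was the single gene with opposite calls, shorter in 3' end-seq and distal in RNA-seq at 0.945 in the authors' deposited table. Its falling site lay 32208 nt short of the RefSeq end. Pairs of genes with matching calls could also lie far short of it, as in TUSC3, with its rising site 87444 nt short. Whether a pair and the RNA-seq call concern the same sites was not tested for any gene listed from both assays.

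**Figure D5:**
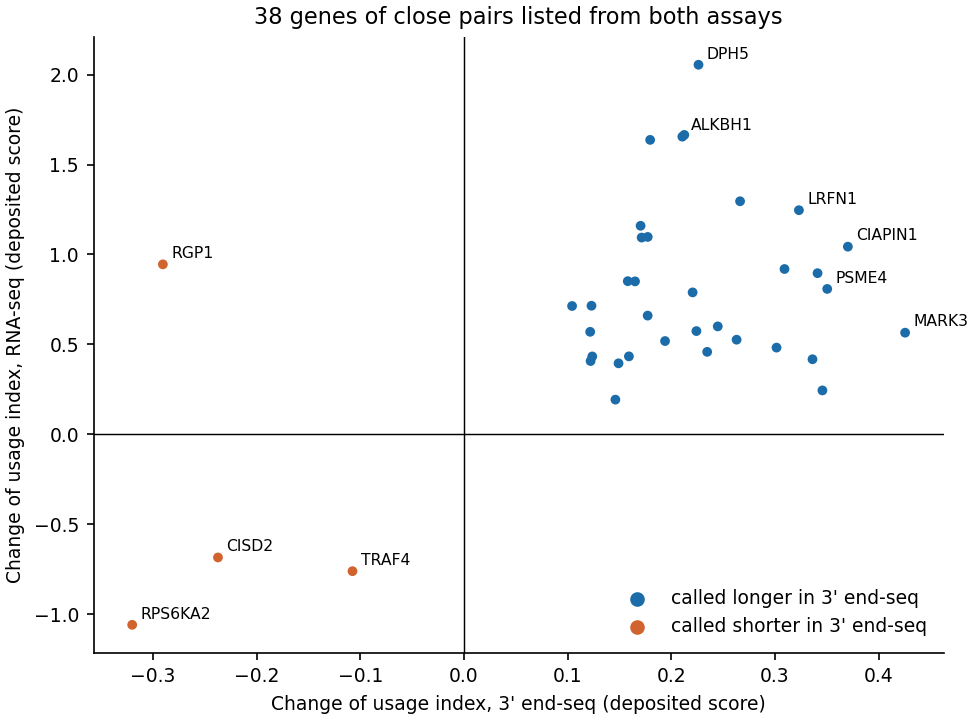
Each point is 1 of the 38 genes of close pairs listed from both assays, placed by its change in 3' end-seq (x) and in RNA-seq (y), both the authors' deposited scores on different scales. The 34 genes called longer lie in the upper right, RPS6KA2, CISD2 and TRAF4 in the lower left, and RGP1 alone in the upper left.

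By function, close pairs were spread over many gene groups and most members of each were called longer, as in the table at large, where 84.7% were. Groups were lists of gene symbols and symbol stems, not full catalogues of a function, and genes named elsewhere in the text can lie outside them. The counts describe each list and no list was tested. Close pairs made up 23.7% of all listed pairs, the background for the share of a list that had one. Of 6 listed genes on a list of known TDP-43 polyadenylation targets, close pairs held MARK3 and NEFL, both longer. Both were already known from earlier results of these data and are no independent support. NEFL, the neurofilament light chain, had 0.315 over 471 nt in the authors' deposited table. The cytoskeletal and motor group had 3 of 16, all longer, and MARK3 and NEFL were again among them. The third was DYNC1LI1, a light intermediate chain of cytoplasmic dynein, at 0.318 over 779 nt in the authors' deposited table. CFAP410 was the ALS gene in the set, at 0.134 over 947 nt in the authors' deposited table.

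PCF11, which couples cleavage to transcription termination, was the single cleavage factor of the 7 in the table, at 0.212 over 586 nt in the authors' deposited table. The splicing factor list had 3 close pairs of 14 in the table, SRSF5 at 0.132, SNRPB2 at 0.145 and the shorter SNRPG at -0.208 in the authors' deposited table. Spliceosomal genes outside that list, such as SNRNP200 at 0.124 and SNU13 at 0.122 in the authors' deposited table, also had close pairs and were named after their values were seen. Of the 5 neuronal RNA-binding protein genes and the 9 synaptic vesicle genes in the table, 0 had a close pair. Ion channels had 3 of 17, all longer: KCNK2, a background potassium channel, at 0.332, CACNG5 at 0.317 and the kainate receptor GRIK4 at 0.249 in the authors' deposited table.

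The ubiquitin and proteasome list was matched by symbol stems, which took in UBE2CP5. A close pair was found in 11 of its 66 genes, all 11 longer, with a median size of 0.207. They included RNF2, a Polycomb ubiquitin ligase, at 0.395 over 48 nt, PSME4 at 0.350, USP19 at 0.289, PSMG4 at 0.282 and FBXO38 at 0.275 in the authors' deposited table. Endosome, Golgi and vesicle traffic had 13 of 44, 12 longer and 1 shorter, at a median size of 0.157. AP3S1, an adaptor subunit, had 0.284 over 93 nt and VPS36, a subunit of the sorting complex ESCRT-II, 0.196 over 93 nt in the authors' deposited table. The shorter one was ARL6IP6 at -0.153 in the authors' deposited table.

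Ribosome and translation genes had 6 of 29, of which 5 were mitochondrial ribosomal proteins and longer, led by MRPL32 at 0.306 over 95 nt and MRPL35 at 0.286 over 948 nt in the authors' deposited table. The cytosolic ribosomal protein gene RPL23A was the shorter one, at -0.276 over 415 nt in the authors' deposited table. Mitochondrial respiration and import had 4 of 19, all longer. Beside TIMM10 they were ATP5MJ, an ATP synthase subunit, at 0.275 and the complex I subunits NDUFA6 at 0.194 and NDUFB3 at 0.124 in the authors' deposited table.

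The list of signalling kinases and phosphatases holds neither MARK3, FYN nor RPS6KA2, and PIK3IP1 and PRKRA came onto it by their symbols. It had 11 of 40, with 8 longer and 3 shorter at a median size of 0.173. The largest changes called longer on this list were those of PTPN14, CDK12, a kinase of elongating RNA polymerase II, at 0.279 and PPP3CA, the calcineurin catalytic subunit, at 0.234 in the authors' deposited table. The shorter ones on it were AKTIP, an AKT-binding protein that is no kinase itself but matched by its symbol, at -0.236, PPP6R2 at -0.157 and DUSP10 at -0.143 in the authors' deposited table. The list of chromatin regulators, which does not hold RNF2 or KAT14, had 4 of 17, all longer. They were SMARCA1 at 0.218, KMT2D at 0.162, SMARCA2 at 0.123 and KDM2A at 0.108 in the authors' deposited table.

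Zinc finger genes had 14 of 83, with 13 longer and ZNF354C shorter, at a median size of 0.177. ZNF24 at 0.276 over 134 nt and ZNF543 at 0.237 over 512 nt led the longer ones in the authors' deposited table. By RefSeq biotype, 26 of the 495 matched close pairs were long noncoding RNA genes, 23 longer and 3 shorter. This was 5.25% (95% exact binomial interval 3.46 to 7.60), beside 7.71% of all matched pairs. The share was 6.03% (4.70 to 7.61) in wider pairs up to 10000 nt apart and 13.7% (10.8 to 17.0) in those farther apart. The list of long noncoding and antisense RNAs, built from symbol stems and without MINCR and GSEC, had 23 of 139, with 20 longer and 3 shorter at a median size of 0.250. LINC01801 at 0.413, ZNF516-AS1 at 0.376 and A2M-AS1 at 0.327 had the largest changes called longer on this list in the authors' deposited table. The shorter ones were TMEM147-AS1, LINC00649 and CSGALNACT2-DT, the last at -0.207 over 55 nt in the authors' deposited table.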

How the data were processed

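RNA-seq used a stranded kit for total RNA and 3' end-seq used QuantSeq REV, per the labels' protocols. The submitters' processing notes name fastp, STAR, SAMtools, Salmon, DESeq2 and hg38, without versions or roles. The polyadenylation caller is not given in the sources used here. Each change of usage index is a score that the authors deposited. The adjusted p-values are the authors' own, and site usage is a fraction that they deposited, printed here as a percent.

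Positions were used as deposited, and whether they count from 0 or 1 is not stated. A rising site was taken as one used more after TDP-43 shRNA: 199 rising and 0 falling sites were cryptic, and usage of all 457 cryptic sites was higher in knockdown. The labels longer and shorter matched the order of the sites along the strand in every close pair. RefSeq genes (GRCh38.p14) were matched by symbol and chromosome for 491 members and by an older symbol for 4, and 31 had no match. Of 29 members without a symbol in the table, 1 was named from the reference. Repeated lines of the cryptic table were counted once. Antisense and divergent transcripts were kept out of the other gene lists, and S6 kinases out of the ribosome list, after the matches were seen.

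Shares carry exact (Clopper-Pearson) intervals at 95%. No test was run, because no value per library was at hand. Named were the 12 largest changes in each direction, the 5 shortest pairs, 3 pairs on each side of the limit, the 10 cryptic rising sites with the highest knockdown usage, members of the lists of TDP-43 targets and of ALS and FTD genes, up to 5 members of each other list by size, and genes with opposite calls between assays. Genes named beyond this rule were chosen after their values were seen. The members and lists were chosen with earlier results of these data known. A gene table with 6 per-sample columns was not used, since no label ties its columns to samples. Functions were tested on simulated data. The software was Python (3.11.15) with SciPy (1.17.1), pandas (2.3.3), numpy (2.4.6) and, for figures, matplotlib (3.10.9). The sequence and values of 1 further member are not reported here.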

Additional observations from a re-analysis of the deposited data

How the results depend on the processing

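Alternatives changed the membership rule, the filter or the matching, and 21 of 23 moved their result by less than its interval. They reuse the same pairs in whole or in part, so small moves are no independent support. One of the 21 could not move: requiring both junction ends between the sites had to leave the 0 junctions at 0. The share called longer stayed between 85.6% (pairs at most 500 nt apart) and 90.0% (pairs at most 2000 nt apart, or both sites inside the RefSeq gene) over 7 alternatives. The share listed in RNA-seq was 11% of 887 pairs at most 2000 nt apart, against 7.22% as reported; the cause was not tested. The share with both sites inside the gene was 98.4% when sites up to 100 nt outside it counted as inside, which adds sites by construction. Counting a site as at the gene end within 10 or 100 nt, chosen after seeing the data, gave 66.1% and 72.5%. Leaving out each replicate was not run. No paired analysis was possible because the tables hold no value per library. The depth is unknown, so close pairs missed for low coverage cannot be counted.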

Other observations

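Some genes with a close pair also had a cryptic site past it. Of the 526 genes, 20 had any cryptic site in the authors' deposited table (3.80%, 95% exact binomial interval 2.34 to 5.81), beside 10.5% of all listed pairs and 12.6% of those over 1000 nt apart. These shares mostly repeat those of cryptic rising sites, which account for 12 of the 20 genes and for 187 of the 214 with wider pairs. They do not compare sites past the pair, for which no share was computed. Apart from the 12 rising sites, 8 cryptic sites of the 20 genes lay in an extension past the 3'UTR and 1, that of AKTIP, in the 3'UTR. DPYSL5, a collapsin response mediator gene of axon guidance, used a site 942 nt past its close pair at 51.3% in TDP-43 shRNA and 3.96% in scrambled shRNA neurons in the authors' deposited table. CNOT10, a subunit of the deadenylase complex, used one 3569 nt past its pair at 21.8% in TDP-43 shRNA and 2.17% in scrambled shRNA neurons in the authors' deposited table. LAMP1, a lysosomal membrane protein gene, used one 3405 nt past its pair at 16.7% in TDP-43 shRNA and 1.58% in scrambled shRNA neurons in the authors' deposited table. ATP6V1H had 2 cryptic sites, its rising site and one 2501 nt farther on used at 16.5% in TDP-43 shRNA and 0.140% in scrambled shRNA neurons in the authors' deposited table. The close pair did not hold every listed change of these genes. RITA1 was called shorter within its close pair and had a cryptic extension site 3134 nt past it, used at 15.9% in TDP-43 shRNA and 2.91% in scrambled shRNA neurons in the authors' deposited table. These genes were chosen after their values were seen.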
